A study of Mus musculus with 14 samples.

Results

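The gene p53 (Trp53), its negative regulator Mdm2 and 7 genes that p53 is known to switch on (Cdkn1a, Ccng1, Gadd45a, Gadd45b, Bax, Pmaip1 and Bbc3) were followed through mouse embryos obtained either by fertilisation in vitro (IVF) or by nuclear transfer from a somatic cell (SCNT), where an oocyte stripped of its own nucleus receives that of a body cell. The 9 genes were chosen by symbol from 22493 in the deposited expression table. All 9 were in the table, and 8 of them reached at least 1 FPKM in at least 2 libraries and were tested. Bbc3 stayed below that level in every library and is given by its values only. Pmaip1 reached that level in 5 libraries only, which are named with its values. FPKM counts the sequenced fragments of a gene relative to its length and to the fragments of the library. Levels of different genes can be compared per length on this scale, while comparisons between libraries also depend on how these are scaled to each other, and the values under other scalings are given where they change a result.

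The series held 14 RNA-seq libraries in 7 groups of 2. The donor cells were cumulus cells, which surround the oocyte in the follicle, taken at about 1000 cells per library. They are labelled (C57BL/6J x CAST/EiJ) F1, whereas the protocols name BDF1 females as their source, and the sources used here do not settle the difference. IVF embryos came from C57BL/6J oocytes and CAST/EiJ sperm, in pools of 32 and 31 embryos at the 1-cell stage and of 25 and 25 at the 2-cell stage. SCNT embryos had a (C57BL/6J x CAST/EiJ) F1 donor nucleus in a B6D2F1 recipient oocyte, in pools of 36 and 36 at the 1-cell stage and of 40 and 40 at the 2-cell stage. A pair of further SCNT 2-cell groups, pools of 25 and 25 embryos each with the same donor and recipient strains, overexpressed Kdm4d, a demethylase that removes methyl groups from lysine 9 of histone H3, or a mutated form of it. The sources used here do not state which residue was mutated or how the enzyme was supplied. The strain of the oocyte differed between IVF and SCNT embryos, so that strain and nuclear transfer cannot be told apart. In pooled embryos, fewer transcribing embryos and less RNA per embryo cannot be told apart either.

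Kdm4d itself stood at 8880 and 2260 FPKM in the embryos labelled as overexpressing it and at 723 and 283 FPKM in the mutant embryos. It was below 0.76 FPKM in the other 10 libraries. The overexpression groups thus differed in the amount of Kdm4d RNA as well as in the mutation. The summed FPKM of a library ran from 183080 in SCNT 2-cell embryos to 345452 in IVF 1-cell embryos. Relative depth was estimated from the most common ratio between the low values of a library and those of the first IVF 1-cell library. It was 0.42 to 0.518 of that library in the 4 overexpression libraries, against 0.785 to 0.953 in the other 7 embryo libraries. The 25 cumulus markers summed to 21800 to 28200 FPKM in the donor libraries. They summed to 11.3 to 11.9 in IVF 1-cell and 69.0 to 89.5 in SCNT 1-cell embryos. At the 2-cell stage the sums were 120 to 123 after IVF and 82.1 to 86.1 in plain SCNT embryos. With Kdm4d the sum was 145 to 211, of which Gja1 averaged 127, and with the mutant 91.8 to 111. The 17 oocyte markers in the table summed to 13600 to 14000 in IVF 1-cell and 11000 to 11600 in SCNT 1-cell embryos, and to 11.3 to 11.6 in the donor cells. In the Kdm4d embryos they summed to 2510 to 3640 and in the mutant embryos to 3020 to 6130, against 1320 to 1520 in plain SCNT and 2130 to 2180 in IVF 2-cell embryos.

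p53 is a transcription factor that is held at a low level by the ubiquitin ligase Mdm2 and by its partner Mdm4. DNA damage and other stress release it from them, and it then switches on genes that halt the cell cycle, repair DNA or start apoptosis, Mdm2 being among these genes. The 1-cell embryo lives mainly on RNA stored in the oocyte, and the mouse embryo starts most of its own transcription at the 2-cell stage. The RNA of Trp53 is not a measure of p53 protein, whose level is set largely by degradation.

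The promoter sequences of the members show where the 10-letter p53 consensus decamer, of which a full p53 site has a pair, stands in front of these genes. RefSeq promoters (mouse build GRCm38.p6, while the expression table is on mm9) were used for 8 of the 9 genes, in 11 windows of the 250 bases before an annotated start. None is shown for Pmaip1. A decamer on either strand was found in 6 of the 11 windows and in 6 genes. Of all 32851 promoter windows of that length, 7.13% held one. Only exact matches to the consensus were counted, so decamers with a mismatch are not marked. The windows shown are those of Cdkn1a and Gadd45a, whose levels separated SCNT from IVF embryos, of Mdm2, the feedback regulator, and of Gadd45b as a window without a decamer. Each decamer is in capitals and each sequence is written 5′ to 3′ toward the start of the gene.
Cdkn1a, chr17:29090729-29090978, plus strand: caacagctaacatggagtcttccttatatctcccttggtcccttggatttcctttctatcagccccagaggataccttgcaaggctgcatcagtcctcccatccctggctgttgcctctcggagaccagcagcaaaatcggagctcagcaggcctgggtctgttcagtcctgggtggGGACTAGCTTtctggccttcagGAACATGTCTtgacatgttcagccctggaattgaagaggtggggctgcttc
Gadd45a, chr6:67037408-67037657, minus strand: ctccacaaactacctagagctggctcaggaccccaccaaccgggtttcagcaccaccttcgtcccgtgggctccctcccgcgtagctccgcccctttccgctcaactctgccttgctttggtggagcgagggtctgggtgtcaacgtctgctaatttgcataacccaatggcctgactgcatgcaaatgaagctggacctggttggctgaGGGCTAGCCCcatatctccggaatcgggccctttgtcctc
Mdm2, chr10:117710759-117711008, minus strand: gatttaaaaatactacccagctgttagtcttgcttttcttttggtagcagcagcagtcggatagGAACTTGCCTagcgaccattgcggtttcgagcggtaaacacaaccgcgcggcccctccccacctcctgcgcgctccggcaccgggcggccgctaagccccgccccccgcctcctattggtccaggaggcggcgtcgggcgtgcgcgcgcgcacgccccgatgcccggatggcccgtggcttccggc
Gadd45b, chr10:80929841-80930090, plus strand: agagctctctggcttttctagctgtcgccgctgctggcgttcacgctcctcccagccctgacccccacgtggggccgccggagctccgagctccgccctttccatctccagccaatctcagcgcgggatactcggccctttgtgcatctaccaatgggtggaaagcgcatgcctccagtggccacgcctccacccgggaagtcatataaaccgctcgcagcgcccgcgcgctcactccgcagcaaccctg

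In the Cdkn1a window the decamers GGACTAGCTT and GAACATGTCT began 73 and 51 bases before the start. Whether they form the pair of a full site was not tested. This window belongs to the upstream of 2 annotated Cdkn1a starts that lie 2790 bases apart, so the same decamers lie 2863 and 2841 bases before the downstream start, whose own window held none. The Gadd45a decamer GGGCTAGCCC began 40 bases and the Mdm2 decamer GAACTTGCCT 186 bases before the start. Bax held AGGCAAGCTT at 201 bases, Ccng1 held GGGCAAGCCT at 185 bases and Trp53 itself held GGACTTGCCC at 75 bases. The Gadd45b window printed above and the 3 Bbc3 windows held none of these letters, and nothing about binding follows from either outcome. Of the other motifs searched on both strands, CCAAT stood in 33.8%, GGGCGG in 32.7%, TATAAA in 12.4% and TGACGTCA in 1.55% of all windows. Gadd45b held 2 CCAAT, 1 GGGCGG and 1 TATAAA match, Gadd45a held 1 CCAAT and 1 GGGCGG match, and the upstream Cdkn1a window held none of the 4.

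Trp53 (chromosome 11, 69393861 to 69405375 on mm9) was highest in the donor cells and lowest in the 2-cell embryos. It stood at 95.1 and 69.5 FPKM in the donor cells, 51.1 and 56.4 in SCNT 1-cell and 37.3 and 35.4 in IVF 1-cell embryos. At the 2-cell stage it stood at 20 and 13.4 FPKM after IVF, 16.7 and 17.7 after SCNT, 13.1 and 12.6 with Kdm4d and 13.2 and 10.7 with the mutant. The donor and the 1-cell groups stood apart from each other and from the 2-cell embryos, among which SCNT overlapped IVF and Kdm4d overlapped the mutant. From the 1-cell to the 2-cell stage Trp53 fell 2.18-fold after IVF (log2 difference −1.10 ± 0.20 SE, limma adjusted p = 0.00033) and 3.13-fold after SCNT (−1.59 ± 0.20, adjusted p = 2.3e-05), on the scale of log2(FPKM + 1) on which every log2 difference here is given and which understates the change of genes near 0. Between SCNT and IVF 2-cell embryos it differed by 0.06 ± 0.20, within the spread of the libraries (limma adjusted p = 0.82). Of the 50-base stretches of Trp53 transcripts, 3.95% also occur in other transcripts, the Trp53 pseudogene among them, and the sources used here do not say how the authors assigned such reads.

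Mdm2, the ligase that marks p53 for degradation (chromosome 10, 117125961 to 117147772), went the other way between embryo and donor cell. It stood at 43.7 and 40.2 FPKM in IVF 1-cell and 27.1 and 26.9 in SCNT 1-cell embryos, and at 13.7 and 14.9 in the donor cells. In 2-cell embryos it stood at 26.7 and 24.0 FPKM after IVF, 23.6 and 24.2 after SCNT, 27.3 and 43.2 with Kdm4d and 24.5 and 28.2 with the mutant. The higher Kdm4d library lay within the range of IVF 1-cell embryos and the lower one within that of the mutant embryos. IVF 2-cell embryos overlapped plain SCNT and mutant 2-cell embryos, and the mutant embryos also overlapped SCNT 1-cell embryos. Plain SCNT 2-cell embryos lay below both the mutant and the SCNT 1-cell embryos, and IVF 2-cell embryos below the SCNT 1-cell embryos. Every embryo library lay above the donor cells. Mdm2 fell 1.66-fold after IVF between the stages (−0.71 ± 0.19, limma adjusted p = 0.0048), a call that was lost when the libraries were scaled to equal FPKM sums (−0.20, adjusted p = 0.43). After SCNT the stage difference was −0.17 ± 0.19 (limma adjusted p = 0.44), and with equal sums it turned to 0.58 (adjusted p = 0.02).

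Mdm4, the relative and partner of Mdm2 that blocks the activity of p53, lay far above all 9 chosen genes in every embryo library. It stood at 808 and 797 FPKM in IVF 1-cell, 722 and 755 in SCNT 1-cell, 372 and 410 in IVF 2-cell and 528 and 511 in SCNT 2-cell embryos. With Kdm4d it stood at 421 and 395 FPKM, in the mutant embryos at 709 and 474, and in the donor cells at 6.60 and 6.92. In every embryo group the mean of Mdm4 lay at percentile 99.4 to 99.9 of the tested genes, against 65.4 in the donor cells. The ratio of Mdm4 to Mdm2 was 18.5 and 19.8 in IVF 1-cell, 26.6 and 28.0 in SCNT 1-cell, 14.0 and 17.1 in IVF 2-cell and 22.3 and 21.1 in SCNT 2-cell embryos, and 0.483 and 0.464 in the donor cells. Mdm4 fell between the stages after IVF by 1.04 ± 0.18 (limma adjusted p = 0.00027, lost with quantile normalization at −0.13 and adjusted p = 0.53). Its difference after SCNT turned direction with quantile normalization, from −0.51 ± 0.18 (adjusted p = 0.026) to 0.95 (adjusted p = 0.00045), and to 0.27 (adjusted p = 0.12) with equal sums. Without any 1 of the 4 SCNT libraries of that comparison the adjusted p was 0.074 to 0.11. Mdm4 shares 7.31% of its stretches with other transcripts, including a pseudogene.

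**Figure D1:**
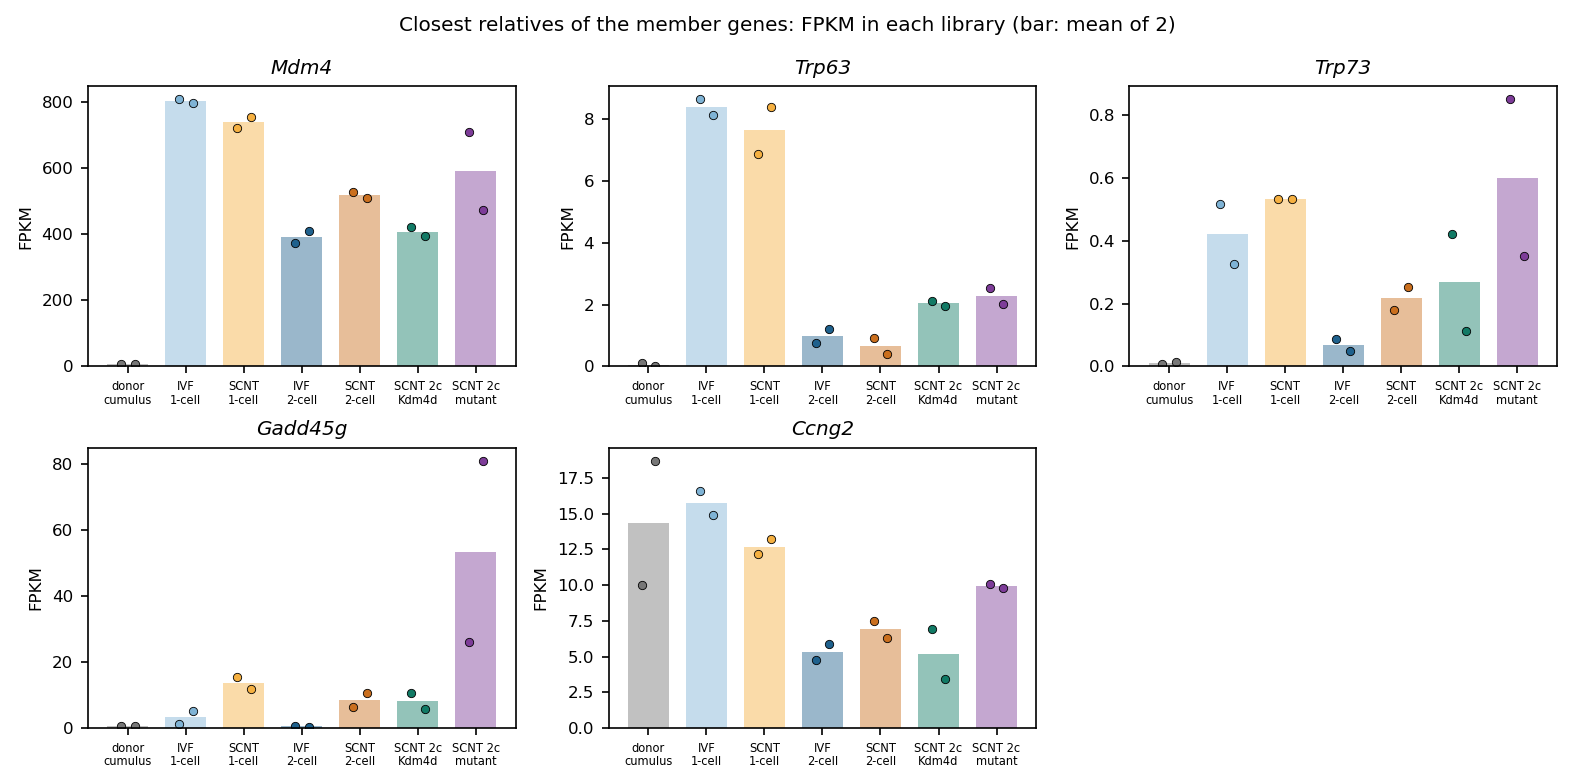
FPKM of Mdm4, Trp63, Trp73, Gadd45g and Ccng2, the closest relatives of the chosen genes, in each of the 14 libraries (y axis, linear and starting at 0). Points are libraries and bars the mean of 2. Mdm4 is at least 372 in every embryo library and at most 6.92 in the donor cells, and Gadd45g is highest in the mutant embryos at 25.9 and 80.9.

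The relatives of p53 itself lay far below Mdm4 in the embryos. Trp63, which guards the oocyte genome, stood at 8.63 and 8.13 FPKM in IVF 1-cell and 6.86 and 8.39 in SCNT 1-cell embryos. At the 2-cell stage it stood at 0.772 and 1.22 after IVF and 0.910 and 0.392 after SCNT, and at 2.13 and 1.96 with Kdm4d and 2.54 and 2.01 with the mutant. Both 1-cell groups lay above every 2-cell library, and Trp63 fell by 2.24 ± 0.20 after IVF and by 2.40 ± 0.20 after SCNT (limma adjusted p = 1.2e-06 and 1.1e-06). Trp63 was called higher than in plain SCNT with Kdm4d (0.90 ± 0.20, limma adjusted p = 0.0045) and with the mutant (1.00 ± 0.20, 0.0082). These levels are near 0, and the alternatives are not given for Trp63. The summed oocyte markers were also higher there, at 2510 to 3640 FPKM with Kdm4d and 3020 to 6130 with the mutant. In plain SCNT they were 1320 to 1520, and their part in the Trp63 difference was not tested. Trp73 did not reach 0.86 FPKM in any library.

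Cdkn1a, which encodes the inhibitor of cyclin-dependent kinases through which p53 halts the cell cycle (chromosome 17, 29227931 to 29237667), was low in 1-cell embryos, rose at the 2-cell stage and was higher in SCNT than in IVF embryos. It stood at 108 and 98 FPKM in the donor cells, 0.97 and 1.59 in IVF 1-cell and 3.61 and 3.70 in SCNT 1-cell embryos. In 2-cell embryos the level was 8.65 and 7.27 FPKM after IVF, 21.5 and 25.7 after SCNT, 39.8 and 32.3 with Kdm4d and 24.7 and 33.8 with the mutant. All 6 libraries of SCNT 2-cell embryos lay above both IVF 2-cell libraries, and the 3 SCNT 2-cell groups overlapped as neighbours.

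Between the stages Cdkn1a rose 6.22-fold after IVF (1.98 ± 0.20, limma adjusted p = 2.3e-06) and 6.45-fold after SCNT (2.40 ± 0.20, adjusted p = 8.1e-07), and the difference of these changes, 0.41 ± 0.28, did not pass (adjusted p = 0.29). It was 2.86-fold higher in SCNT than in IVF 1-cell embryos (1.04 ± 0.20, limma adjusted p = 0.019) and 2.96-fold higher at the 2-cell stage (1.46 ± 0.20, adjusted p = 0.00012). The 2-cell difference stayed called in each of the alternatives tried, including the omission of any 1 of the 4 libraries compared. The 1-cell call was lost without any 1 of its 4 libraries (adjusted p 0.058 to 0.23), with quantile normalization (0.098) and with equal sums (0.055). Of the Cdkn1a stretches, 8.49% also occur in other transcripts.

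Cyclin G1 (Ccng1), a p53 target that recruits a phosphatase to Mdm2 (chromosome 11, 40562054 to 40568788), was likewise highest in the donor cells and lowest in IVF 1-cell embryos. It stood at 12.6 and 11.3 FPKM in the donor cells, 1.77 and 1.12 in IVF 1-cell, 1.79 and 2.37 in SCNT 1-cell, 3.12 and 3.19 in IVF 2-cell and 4.03 and 4.44 in SCNT 2-cell embryos. Overexpression of Kdm4d gave 4.21 and 3.72 FPKM and that of the mutant 6.68 and 3.83. Every SCNT library lay above both IVF libraries of its stage, but neither difference passed (0.34 and 0.33, each ± 0.23, limma adjusted p = 0.55 and 0.25). The 2-cell difference passed with equal sums (0.65, adjusted p = 0.019) and was −0.01 (0.99) with quantile normalization. Ccng1 rose 2.19-fold after IVF and 2.04-fold after SCNT between the stages (0.78 and 0.77, each ± 0.23, limma adjusted p = 0.0092 and 0.01). The IVF call was lost without IVF 1-cell library 2 (0.59, adjusted p = 0.095), and the SCNT call without SCNT 1-cell library 1 (0.64, 0.082), without SCNT 2-cell library 2 (0.72, 0.054) or with quantile normalization (0.44, 0.16). Its relative Ccng2 stood at 16.6 and 14.9 FPKM in IVF 1-cell and 4.77 and 5.86 in IVF 2-cell embryos.

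**Figure D2:**
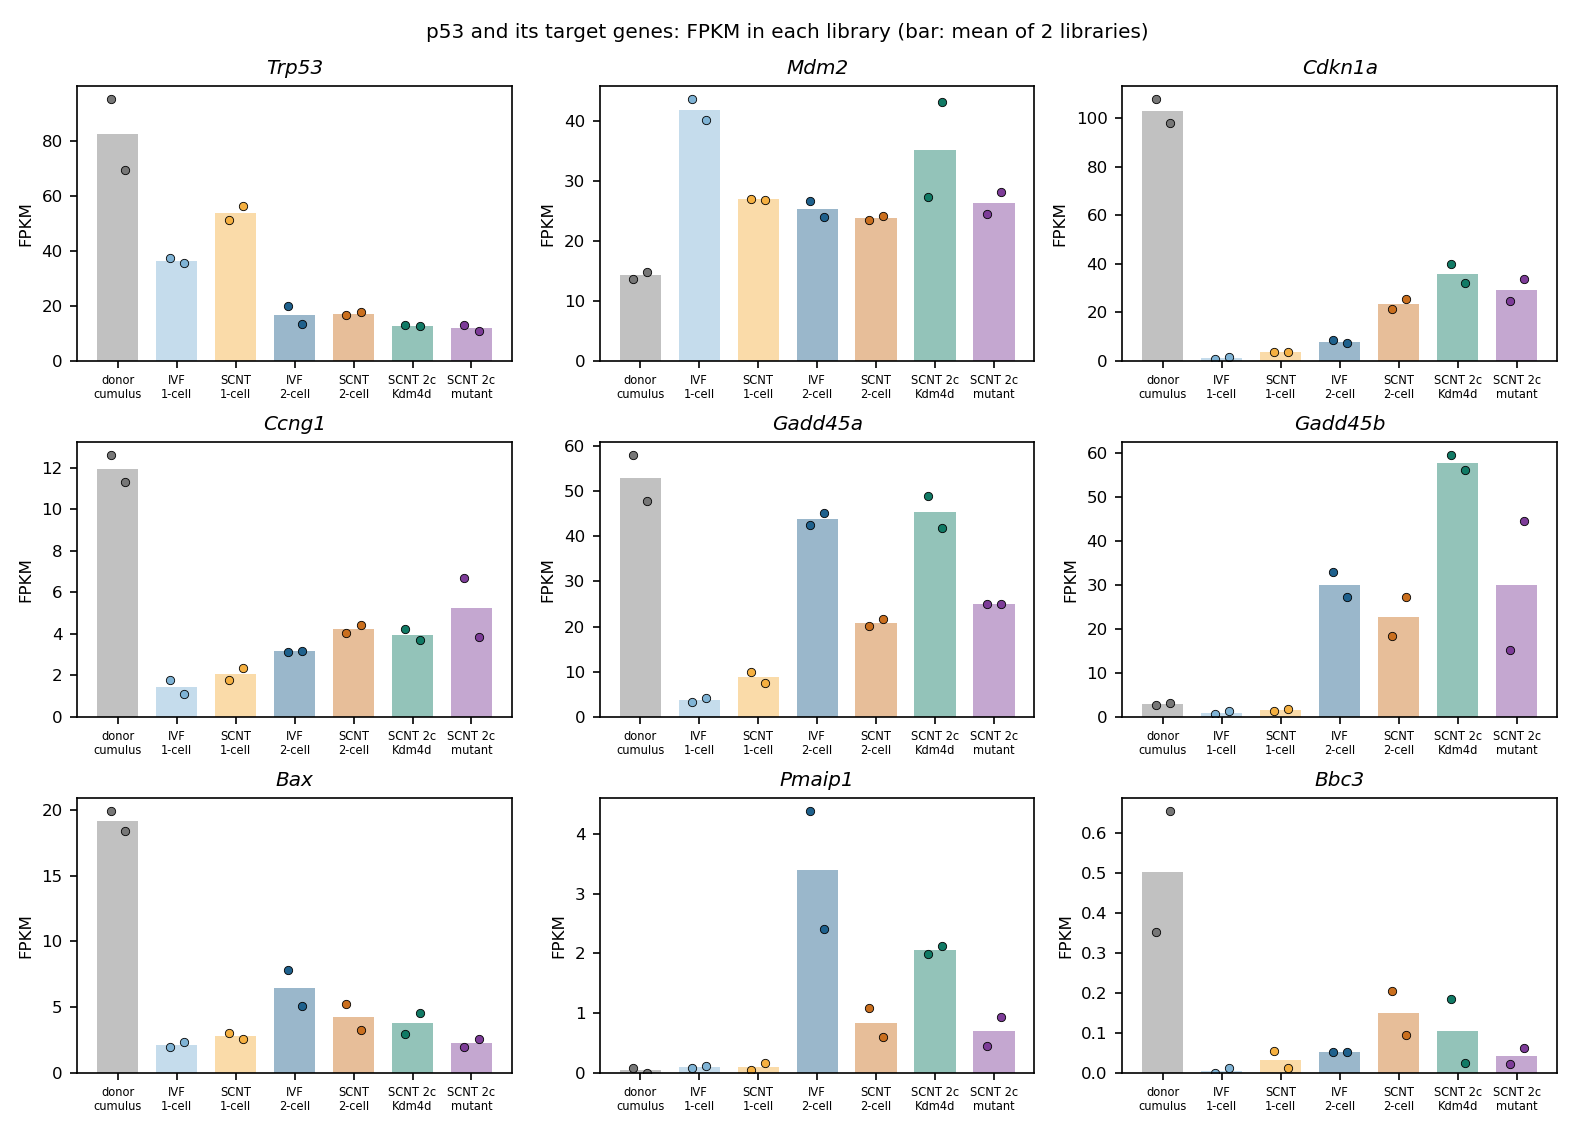
FPKM of the 9 chosen genes in each of the 14 libraries (y axis, linear and starting at 0, with its own scale per gene). Points are libraries and bars the mean of 2. Cdkn1a is above 21 in all 6 libraries of SCNT 2-cell embryos and below 9 in both IVF 2-cell libraries, and Gadd45a is higher in IVF and Kdm4d 2-cell embryos than in plain SCNT and mutant ones.

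Gadd45a encodes a small stress sensor that binds stress kinases of the MAP kinase pathway and cell cycle proteins and has been tied to DNA repair and demethylation (chromosome 6, 66985090 to 66987401). It stood at 3.41 and 4.28 FPKM in IVF 1-cell and 9.96 and 7.55 in SCNT 1-cell embryos, and at 58.0 and 47.8 in the donor cells. At the 2-cell stage it stood at 42.6 and 45.2 FPKM after IVF, 20.2 and 21.6 after SCNT, 48.9 and 41.9 with Kdm4d and 25.1 and 25.0 with the mutant. SCNT embryos were thus above IVF embryos at the 1-cell stage and below them at the 2-cell stage, with no overlap at either stage. The Kdm4d libraries overlapped the IVF 2-cell libraries, and the mutant libraries lay between these and plain SCNT.

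Gadd45a rose 11.4-fold after IVF (3.22 ± 0.17, limma adjusted p = 1.3e-08) and 2.39-fold after SCNT (1.18 ± 0.17, adjusted p = 6.3e-05). The difference of these changes was itself tested and was −2.04 ± 0.24 (limma adjusted p = 0.00016). At the 1-cell stage SCNT embryos had 2.28 times the IVF level (1.00 ± 0.17, limma adjusted p = 0.01), a call lost without either IVF 1-cell library (0.15 and 0.052), without SCNT 1-cell library 1 (0.15) and with quantile normalization (0.058). At the 2-cell stage they had 0.477 times the IVF level (−1.03 ± 0.17, limma adjusted p = 0.00042), which stayed called in every alternative tried. The last 809 bases of Gadd45a in the genome's order, chromosome 6 from 66986593 to 66987401, overlap the gene E230016M11Rik on the opposite strand, and 15.6% of Gadd45a stretches occur in its transcripts. Reads from the overlap cannot be told apart, since the sources used here do not state the strand, but E230016M11Rik did not exceed 0.726 FPKM in any library.

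Gadd45b, of the same family and also induced by other signals than p53 (chromosome 10, 80392836 to 80394949), rose from near 0 in both kinds of embryo. It stood at 0.675 and 1.27 FPKM in IVF 1-cell, 1.42 and 1.69 in SCNT 1-cell, 32.9 and 27.2 in IVF 2-cell and 18.4 and 27.2 in SCNT 2-cell embryos. The Kdm4d embryos had 59.6 and 56.1 FPKM, the mutant embryos 15.2 and 44.7, and the donor cells 2.76 and 3.22. Every 2-cell library lay above the donor cells, and the 2 mutant libraries spanned those of plain SCNT and IVF embryos. The stage change was 3.99 ± 0.37 after IVF and 3.20 ± 0.37 after SCNT (limma adjusted p = 1.4e-06 and 1.3e-05), and these did not differ beyond their spread (−0.79 ± 0.52, adjusted p = 0.28). SCNT and IVF 2-cell embryos differed by −0.40 ± 0.37 (limma adjusted p = 0.4).

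Gadd45g, the remaining gene of the family, differed from both. It stood at 1.24 and 5.12 FPKM in IVF 1-cell and 15.4 and 11.7 in SCNT 1-cell embryos, and at 0.700 and 0.211 in IVF 2-cell and 6.34 and 10.7 in SCNT 2-cell embryos. The Kdm4d embryos had 10.7 and 5.81 FPKM, the mutant embryos 25.9 and 80.9, and the donor cells 0.568 and 0.680. Each SCNT library lay above each IVF library of its stage. The 2-cell difference was 2.69 ± 0.53 (limma adjusted p = 0.0016), while at the same stage Gadd45a was lower in SCNT embryos and Gadd45b did not pass. The 1-cell difference was 1.96 ± 0.53 and did not pass (limma adjusted p = 0.082).

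Bax, which opens the outer membrane of mitochondria in apoptosis (chromosome 7, 52717065 to 52722268), was highest in the donor cells at 19.9 and 18.4 FPKM. It stood at 1.99 and 2.32 in IVF 1-cell, 3.06 and 2.61 in SCNT 1-cell, 7.83 and 5.05 in IVF 2-cell and 5.23 and 3.27 in SCNT 2-cell embryos. With Kdm4d the values were 2.99 and 4.59 FPKM and with the mutant 1.97 and 2.61. Each embryo group overlapped the next in order of level. Bax rose 2.99-fold after IVF (1.21 ± 0.25, limma adjusted p = 0.00092), and the change after SCNT did not pass (0.43 ± 0.25, adjusted p = 0.15, but 1.05 and 0.0031 with equal sums). The difference of the stage changes was −0.79 ± 0.35 and did not pass (limma adjusted p = 0.12). Bax shares 8.51% of its stretches with Gm45808.

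Pmaip1 and Bbc3 encode the proteins Noxa and Puma, which neutralise the guardians of mitochondria such as Mcl1. Pmaip1 (chromosome 18, 66618258 to 66625212) stood at 0.0826 and 0.113 FPKM in IVF 1-cell, 0.0467 and 0.163 in SCNT 1-cell, 4.38 and 2.41 in IVF 2-cell and 1.08 and 0.595 in SCNT 2-cell embryos. The Kdm4d embryos had 1.99 and 2.13 FPKM, the mutant embryos 0.455 and 0.936, and the donor cells 0.089 and 0. It was thus near 0 in donor cells and 1-cell embryos, and at the 2-cell stage the Kdm4d libraries lay between the IVF and plain SCNT libraries without overlap. Pmaip1 reached 1 FPKM in 5 libraries, all of IVF, plain SCNT or Kdm4d 2-cell embryos. It was tested only through these groups, where it was highest. Its stage change was 1.97 ± 0.22 after IVF and 0.72 ± 0.22 after SCNT (limma adjusted p = 6.8e-06 and 0.012), and the difference of these changes was −1.24 ± 0.31 (adjusted p = 0.011, but 0.068 with a pseudocount of 0.1). SCNT 2-cell embryos were lower than IVF 2-cell embryos by 1.23 (log2 difference −1.23 ± 0.22, limma adjusted p = 0.00081). The SCNT stage call was lost without SCNT 1-cell library 1 (0.65, adjusted p = 0.072), without SCNT 2-cell library 1 (0.53, 0.1) and with quantile normalization (0.38, 0.12).

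Bbc3 (chromosome 7, 16894932 to 16903683) was highest in the donor cells at 0.352 and 0.655 FPKM. It stood at 0 and 0.0112 in IVF 1-cell, 0.0538 and 0.0113 in SCNT 1-cell, 0.0533 and 0.0523 in IVF 2-cell and 0.204 and 0.0954 in SCNT 2-cell embryos. The Kdm4d embryos had 0.184 and 0.025 FPKM and the mutant embryos 0.0224 and 0.0626. At these levels no difference between embryo groups was tested.

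In the donor cells most of the genes were far above their level in the IVF 1-cell embryo. Of the 8 tested, 6 were higher and 1 was lower in the donor cells, in a comparison in which 77.9% of all 13452 genes were called (42.4% higher and 35.5% lower). Cdkn1a was 80.4-fold higher (5.52 ± 0.20, limma adjusted p = 1.4e-10), Gadd45a 13.8-fold (3.47 ± 0.17, 1.8e-09), Bax 8.90-fold (2.68 ± 0.25, 7.2e-07) and Ccng1 8.30-fold (2.42 ± 0.23, 8.1e-07). Mdm2 was 2.94-fold lower (−1.49 ± 0.19, limma adjusted p = 1e-05) and Mdm4 119-fold lower (−6.70 ± 0.18, 2.1e-11). Gadd45b was higher by 1.03 ± 0.37 (limma adjusted p = 0.023), a call lost without either donor library (0.051 and 0.091), without IVF 1-cell library 1 (0.14) and with quantile normalization (0.26).

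At the 1-cell stage 2 of the 8 genes, Cdkn1a and Gadd45a, were called higher in SCNT than in IVF embryos and none lower, where 2.31% of all genes were called (1.34% higher and 0.974% lower). Both are genes that the donor cells hold at a high level. Trp53, Bax, Ccng1 and Gadd45b were also called higher in the donor cells than in IVF 1-cell embryos, but did not pass here. The summed cumulus markers were 11.3 to 11.9 FPKM after IVF and 69.0 to 89.5 after SCNT. Akr1c18 and Spp1 averaged 31.3 and 25.0 FPKM of the SCNT sum. Of the 23 tested markers 6 were called higher and none lower. Of the 25, 8 were listed at 0 in both IVF 1-cell libraries, Cyp11a1 and Inha among them, and 1 (Amh) in both SCNT 1-cell libraries. The part of cumulus RNA in these differences was not tested. Trp53 at 0.55 ± 0.20 and Mdm2 at −0.62 ± 0.19 did not pass (limma adjusted p = 0.2 and 0.12). Their libraries did not overlap, but neither did those of Bax, Ccng1 and Gadd45b (limma adjusted p = 0.68, 0.55 and 0.71). Of the tested members only Pmaip1 overlapped here, and the share of all genes without overlap is not given. Full separation of 2 libraries from 2 can arise without a difference. When only these 2 groups were fitted Trp53 and Mdm2 passed (0.016 and 0.011), and the members called ranged from 0 to 4 over the alternatives.

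Between the 1-cell and the 2-cell stage most of the chosen genes rose and Trp53 fell. After IVF all 8 tested genes were called, 6 higher and 2 lower, where 67.6% of all genes were called (30.4% higher and 37.2% lower). The genes that rose were the arrest, GADD45 and apoptosis genes, by 0.78 (Ccng1) to 3.99 (Gadd45b), and those that fell were Trp53 and Mdm2. After SCNT 5 rose and Trp53 fell, where 67% of all genes were called (35.5% higher and 31.5% lower). Bax and Mdm2 were the members that did not pass. Pmaip1, among the genes that rose, had passed the filter only through 2-cell libraries, where it was highest. Of the calls with equal sums, 57.1% were higher after IVF, against 45% without that scaling, and 75.1% against 53% after SCNT. The median over all genes was −0.06 after IVF and 0.06 after SCNT, and 0.57 after SCNT with equal sums. The difference between the stage changes passed for 2 members, Gadd45a and Pmaip1, both with the smaller rise after SCNT, where 29.2% of all genes passed (16.5% higher and 12.7% lower). Without scaling 56.6% of those were higher, with equal sums 74.8%. Oocyte markers fell over the same step, from 13600 to 14000 to 2130 to 2180 FPKM after IVF and from 11000 to 11600 to 1320 to 1520 after SCNT, and their part in the members' changes was not tested.

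**Figure D3:**
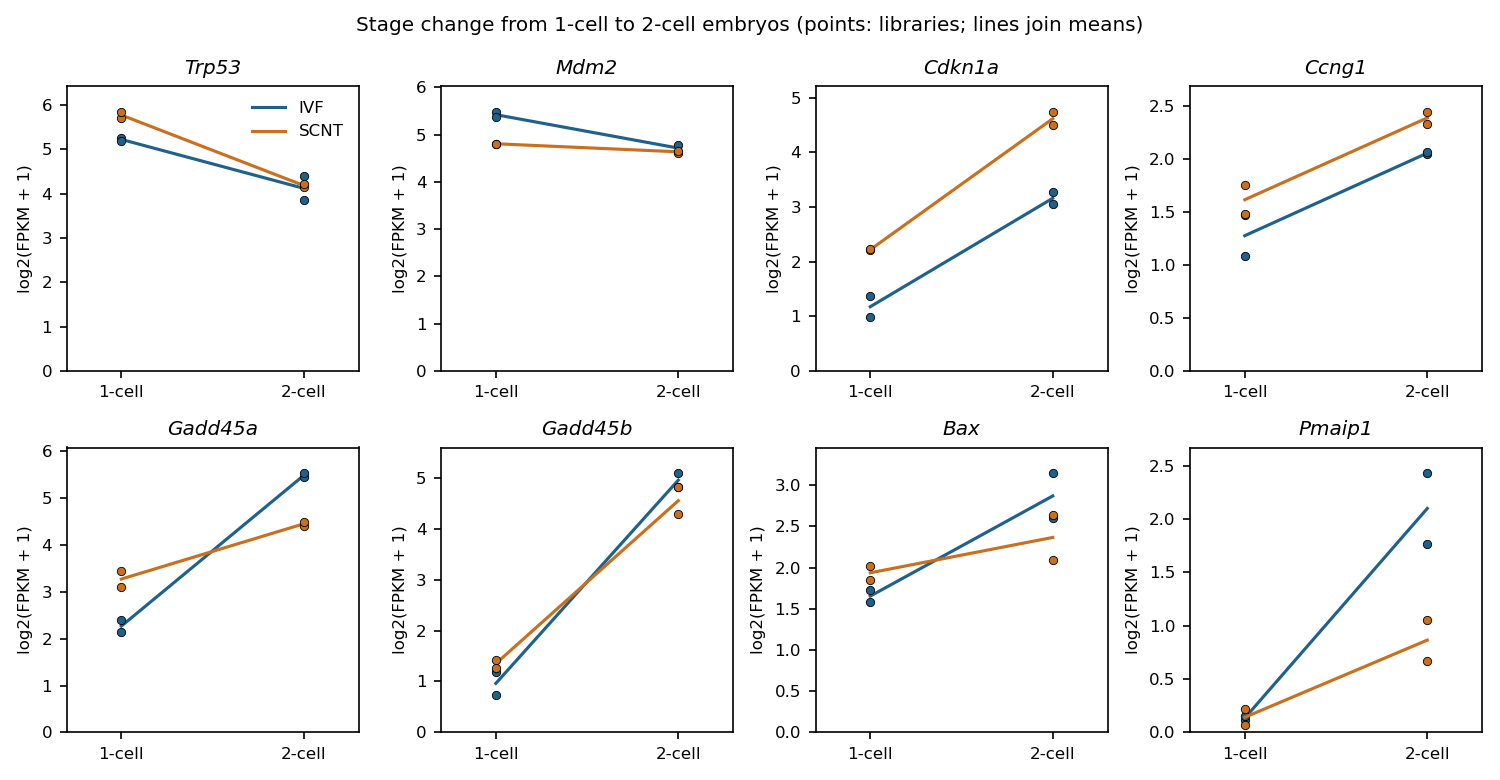
Level of the 8 tested genes on the log2(FPKM + 1) scale (y axis, starting at 0) at the 1-cell and 2-cell stage in IVF (blue) and SCNT (orange) embryos. Points are libraries and lines join group means. The lines cross for Gadd45a, whose SCNT libraries are above the IVF libraries at the 1-cell and below them at the 2-cell stage, and run almost side by side for Cdkn1a and Ccng1.

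At the 2-cell stage SCNT embryos had more Cdkn1a and less Gadd45a and Pmaip1 than IVF embryos. These were 3 of the 8 genes, 1 higher and 2 lower, where 46.9% of all genes were called (30.3% higher and 16.6% lower), which is no larger a share than that of all genes. The same 3 genes were called without each of the 4 libraries in turn. With the transfer the median over all genes was 0.23, which became 0 with quantile normalization and 0.49 with equal sums, and 64.7% of the calls were higher, against 50.7% and 80.8% with those scalings. Relative to the median of 0.23, the 3 genes kept their directions. Pmaip1 had passed the filter only through IVF, plain SCNT and Kdm4d 2-cell libraries, where it was highest. Bax differed by −0.50 ± 0.25 and did not pass (limma adjusted p = 0.12), but was called lower with quantile normalization (−0.79, adjusted p = 0.02). Of the 23 tested cumulus markers 4 were higher and 3 lower in SCNT embryos. Fst stood at 2.87 against 0.213 FPKM, Vim at 2.96 against 0.838, Timp1 at 4.21 against 2.03 and Star at 1.39 against 0.516, all called higher. The sum of the markers was lower, at 82.1 to 86.1 against 120 to 123 FPKM, with Gja1 (35.1 against 58.9) and Nr5a2 (11.7 against 29.5) called lower. The part of cumulus RNA in the difference in Cdkn1a was not tested. The immune markers were 14.8 in both IVF libraries and 35.1 to 46.3 after SCNT, and their part was not tested.

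In SCNT 2-cell embryos that overexpressed Kdm4d, 5 of the 8 genes were called higher than in plain SCNT embryos and none lower, where 39.5% of all genes were called (21% higher and 18.5% lower). Gadd45a was 2.17-fold higher (1.08 ± 0.17, limma adjusted p = 0.00044) and Gadd45b 2.54-fold (1.33 ± 0.37, 0.014). Pmaip1 was higher by 0.75 ± 0.22 (limma adjusted p = 0.018), Cdkn1a 1.53-fold (0.59 ± 0.20, 0.032) and Mdm2 1.47-fold (0.51 ± 0.19, 0.048). The filter had let Pmaip1 through only by IVF, plain SCNT and Kdm4d 2-cell libraries, where it was highest. Trp53 was lower in both Kdm4d libraries and did not pass (−0.39 ± 0.20, limma adjusted p = 0.14).

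These calls differed in how they held. With equal sums the median over all genes moved from −0.02 to −0.47 and the share of calls that were higher from 53.2% to 16.0%, and there all 5 calls were lost. Cdkn1a stood at −0.09 (limma adjusted p = 0.77), Mdm2 at −0.17 (0.49), Pmaip1 at 0.38 (0.2), Gadd45a at 0.40 (0.08) and Gadd45b at 0.65 (0.21). Mdm2 lost its call without Kdm4d library 2 (0.19, adjusted p = 0.36), the 1 with 43.2 FPKM, and without SCNT 2-cell library 1 (0.15) or 2 (0.13). Cdkn1a lost its call without SCNT library 1 (0.18) or 2 (0.051) or Kdm4d library 1 (0.15), and Gadd45b without SCNT library 1 (0.11), Kdm4d library 1 (0.055) or Kdm4d library 2 (0.05). Pmaip1 lost its call without SCNT library 2 (0.56, 0.14) or Kdm4d library 2 (0.72, 0.071), while Gadd45a kept its call without each of the 4 libraries. With equal sums 3 other genes were called lower, Trp53 (−1.05, 0.00059), Bax (−0.70, 0.038) and Ccng1 (−0.65, 0.02), and Trp53 was also called lower with quantile normalization (−0.74, 0.0096). The depth of the Kdm4d libraries was 0.518 and 0.42, among the lowest together with the mutant libraries. The summed cumulus markers were 145 to 211 FPKM with Kdm4d and 91.8 to 111 with the mutant, against 82.1 to 86.1 in plain SCNT. Of the 23 tested, 3 were called higher and 5 lower with Kdm4d. Gja1 averaged 127 FPKM with Kdm4d against 35.1 in plain SCNT, and Nr5a2 26.0 against 11.7. Both also rose from IVF 1-cell to IVF 2-cell embryos, Gja1 from 0.688 to 58.9 and Nr5a2 from 6.23 to 29.5. Akr1c18 (0.392 against 2.91), Hsd3b1 (0.0878 against 0.615) and Star (0.209 against 1.39) averaged lower with Kdm4d. The part of depth and of cumulus RNA in the differences of the chosen genes was not tested.

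With the mutant Kdm4d, limma called 0 of the 8 genes against plain SCNT, and 2 had an unadjusted p under 0.05, where 17.7% of all genes were called (11.3% higher and 6.42% lower). Gadd45a differed by 0.25 ± 0.17 (limma adjusted p = 0.33), Trp53 by −0.49 ± 0.20 (0.11) and Bax by −0.65 ± 0.25 (0.09). Gadd45b differed by 0.22 ± 0.37 (limma adjusted p = 0.73), and by 0.97 (0.035) without mutant library 1 and −0.53 (0.13) without mutant library 2, so that its direction rests on single libraries. Of its relatives Gadd45g was 6.25-fold higher (2.34 ± 0.53, limma adjusted p = 0.013). That call was lost without SCNT 2-cell library 1 (2.00, 0.11), with only the compared groups fitted (0.19) and with group weights (0.18), and the value was 3.14 without mutant library 1 and 1.53 without mutant library 2. Of all calls against plain SCNT 63.7% were higher, and 16.3% with equal sums and 48.7% with quantile normalization.

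Between the Kdm4d and the mutant embryos 3 of the 8 genes were called higher with Kdm4d, where 43.8% of all genes were called (21.4% higher and 22.5% lower). Kdm4d RNA itself averaged 5570 FPKM with Kdm4d and 503 with the mutant, so the mutation and the amount of RNA cannot be told apart. Gadd45a was 1.81-fold higher (0.83 ± 0.17, limma adjusted p = 0.0022), Pmaip1 was higher by 0.87 ± 0.22 (0.0079) and Gadd45b 1.93-fold (1.11 ± 0.37, 0.03). Pmaip1 stayed below 1 FPKM in both mutant libraries and had passed the filter only through other groups, Kdm4d among them. The Pmaip1 call was lost without mutant library 1 (0.66, adjusted p = 0.058). The Gadd45b call was lost without the same library (0.36, 0.28) or without Kdm4d library 1 (0.091) or 2 (0.092), and the difference was 1.86 without mutant library 2. Gadd45g was lower with Kdm4d by 2.39 ± 0.53 (log2 difference −2.39, limma adjusted p = 0.0038), −3.20 without mutant library 1 and −1.59 without mutant library 2, a call lost with only the compared groups fitted (0.086) and with group weights (0.15). When only these 2 groups were fitted, limma called 0 of the 8 genes and 0 of all genes, with 2 and 3893 at an unadjusted p under 0.05. Of the calls, 48.7% were higher, and 34.8% with equal sums.

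Against IVF 2-cell embryos the Kdm4d embryos had 1 of the 8 genes called, Cdkn1a at 4.53-fold the IVF level (2.04 ± 0.20, limma adjusted p = 7e-05), where 20.3% of all genes were called (16.6% higher and 3.7% lower). Of the 8 genes, 5 had an unadjusted p under 0.05. Gadd45a differed by 0.04 ± 0.17 (limma adjusted p = 0.9), Pmaip1 by −0.49 ± 0.22 (0.14), Bax by −0.63 ± 0.25 (0.097) and Gadd45b by 0.93 ± 0.37 (0.1). Of all calls 81.8% were higher, against 47.0% with quantile normalization and 48.8% with equal sums, under which Gadd45a turned to −0.18 and −0.28 without passing. The comparisons with plain SCNT share its 2 libraries with the comparison of SCNT and IVF, as those with IVF share the IVF libraries, so the values stand beside each other and are not counted as agreeing. Cdkn1a averaged 36.0 FPKM with Kdm4d, 23.6 in plain SCNT and 7.96 in IVF 2-cell embryos. Gadd45a averaged 45.4, 20.9 and 43.9 FPKM in the same groups.

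**Figure D4:**
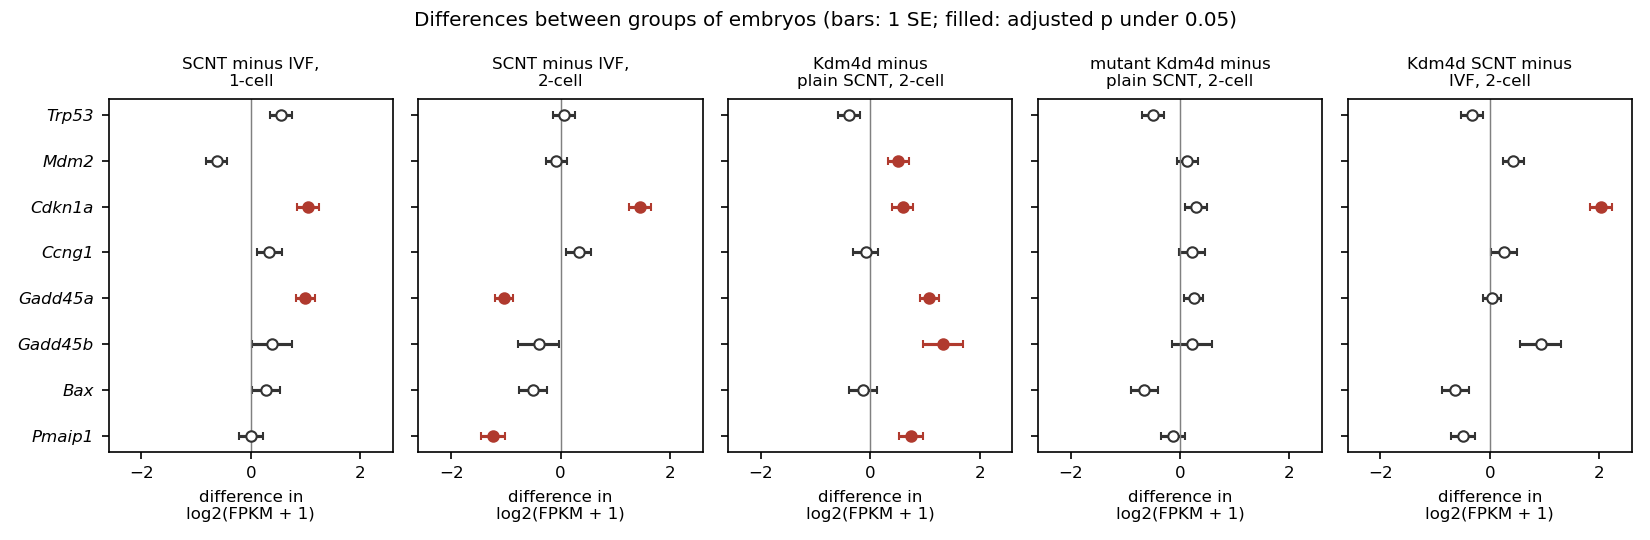
Log2 difference of each of the 8 tested genes in the comparisons (x axis, log2(FPKM + 1) scale, 0 marked) with its standard error as the bar. Filled points passed a limma adjusted p of 0.05. Cdkn1a is called higher in SCNT than in IVF embryos at both stages, and Gadd45a is called higher at the 1-cell and lower at the 2-cell stage.

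The wider pathway moved in both directions. The counts of the 5 further lists for SCNT against IVF 2-cell embryos stand beside 30.3% of all genes called higher and 16.6% called lower, and none of the lists was tested as a set. Of 37 tested further p53 targets, 13 were higher and 9 lower in SCNT than in IVF 2-cell embryos, with a median difference of 0.35 against 0.23 over all genes. Ckap2, a spindle protein, was lower in SCNT embryos at 16.7 against 64.4 FPKM (−1.89 ± 0.14, limma adjusted p = 2.4e-06), and Sesn2, a sestrin that restrains growth signalling under stress, at 3.19 against 11 (−1.5 ± 0.22, 0.00019). Psrc1, another spindle protein, was higher at 9.78 against 1.54 (2.08 ± 0.19, limma adjusted p = 7e-06), and Dram1, which promotes autophagy, at 6.23 against 0.756 (2.04 ± 0.18, 7.4e-06). Between SCNT and IVF 1-cell embryos limma called 0 of the 37, with 5 at an unadjusted p under 0.05. Over the stages 13 rose and 10 fell after IVF, where 30.4% of all genes were called higher and 37.2% lower, and 14 rose and 9 fell after SCNT, where 35.5% were called higher and 31.5% lower.

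The regulators of p53 included its kinases, phosphatases and deacetylases. Of 23 tested, 2 were higher and 4 lower in SCNT than in IVF 2-cell embryos, with a median of −0.03. Ppm1d, a phosphatase that switches p53 signalling off, was lower at 2.41 against 10.7 FPKM (−1.79 ± 0.22, limma adjusted p = 6.5e-05), and Sirt1, a deacetylase of p53, at 40.6 against 122 (−1.56 ± 0.20, 9e-05). The checkpoint kinase Chek1 was higher at 74.4 against 48.4 (0.61 ± 0.14, limma adjusted p = 0.0043). Chek1 and Chek2 went opposite ways between the stages: after IVF Chek1 fell from 456 to 48.4 and Chek2 rose from 0.637 to 23.4, and after SCNT Chek1 fell from 328 to 74.4 and Chek2 rose from 3.35 to 30.9 (limma adjusted p at most 5.9e-07). Of the 23, 7 rose and 8 fell after IVF, and 9 rose and 9 fell after SCNT.

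Among 19 tested genes of the BCL2 family and the caspases, which carry out apoptosis, 5 were higher and 4 lower in SCNT than in IVF 2-cell embryos, with a median of 0.22. Mcl1, which protects mitochondria and is bound by the product of Pmaip1, was lower at 8.77 against 30.2 FPKM (−1.68 ± 0.21, limma adjusted p = 7.9e-05). Bid, which relays the signal of caspase 8, was higher at 11.5 against 2.68 (1.81 ± 0.40, limma adjusted p = 0.0032), and Bad at 5.25 against 2.00 (1.05 ± 0.30, 0.013). The genes named here include a protector from apoptosis, Mcl1, and promoters of it, Bid and Bad. Between the stages Bcl2l10, an abundant oocyte transcript, fell from 3850 to 255 after IVF and from 3580 to 176 after SCNT.

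Of 19 tested inhibitors and partners of the kinases of the G1 phase, 6 were higher and 2 lower in SCNT than in IVF 2-cell embryos, with a median of 0.04. Ccnd2 and Ccnd3, D-type cyclins, stood at 7.19 against 0.0961 and 5.55 against 0.971 FPKM (2.90 ± 0.23 and 1.73 ± 0.22, limma adjusted p = 3.4e-06 and 7.9e-05). Cdk2 and its partner Ccne1, whose activity the product of Cdkn1a blocks, were lower at 12 against 23.4 and 64.3 against 104 FPKM (−0.91 ± 0.18 and −0.67 ± 0.25, limma adjusted p = 0.0018 and 0.044). Ccne1 had risen from 1.40 after IVF and from 2.39 after SCNT at the 1-cell stage.

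Of 8 tested partners of the GADD45 proteins, Gadd45g included, 6 were higher and 2 lower, with a median of 0.75. Map2k3, a kinase of the p38 pathway, stood at 5.60 against 1.56 FPKM (1.36 ± 0.26, limma adjusted p = 0.0014). Gadd45gip1 and the p38 kinase Mapk14 were lower at 8.10 against 13.1 and 12.8 against 18.3 (−0.63 ± 0.20 and −0.49 ± 0.17, limma adjusted p = 0.022 and 0.035). With Kdm4d none of the 8 was higher and 2 were lower than in plain SCNT, and of the 37 further p53 targets 11 were higher and 10 lower, where 21% of all genes were called higher and 18.5% lower. With equal sums 16.0% in place of 53.2% of all calls in that comparison were higher, and the lists were not counted again under that scaling.

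**Figure D5:**
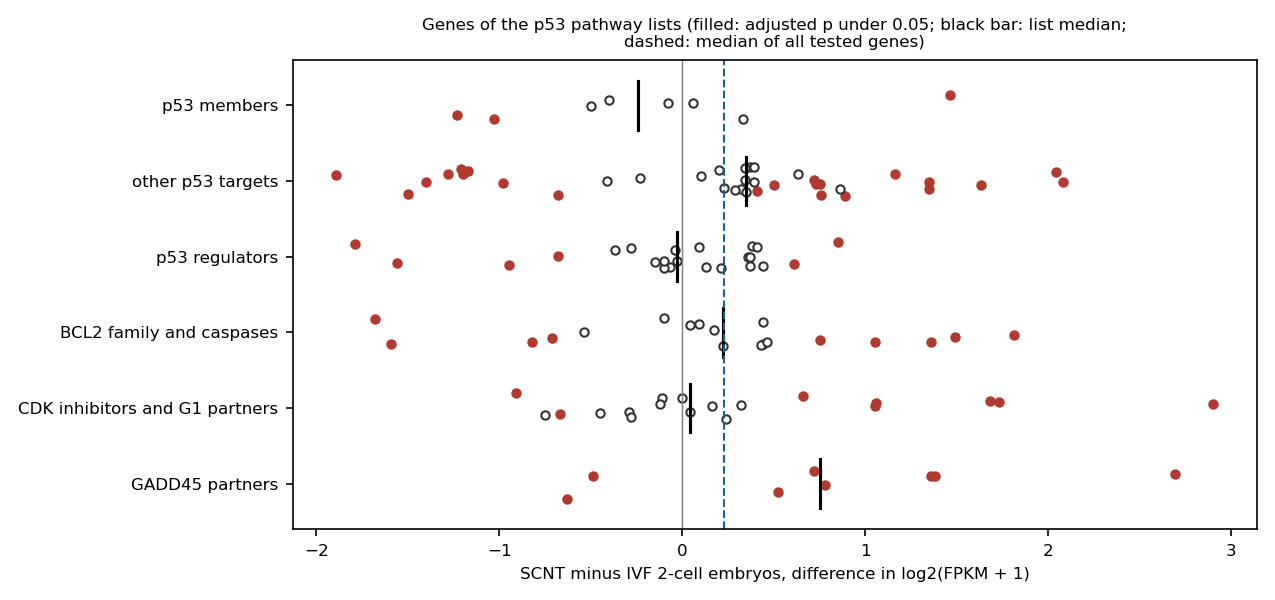
Log2 difference between SCNT and IVF 2-cell embryos (x axis, log2(FPKM + 1) scale) for each tested gene of the chosen 9 and of the 5 further lists (rows). Each point is 1 gene, filled where the limma adjusted p was under 0.05, black bars are list medians and the dashed line is the median of all genes. The medians run from −0.24 for the chosen genes to 0.75 for the GADD45 partners, beside 0.23 over all genes.

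The genes most like each member were sought by Pearson correlation of the 7 group means of log2(FPKM + 1), which share libraries and depth. Cdkn1a was closest to 2610044O15Rik, Tubb5 and Fam20b (r 0.994, 0.993 and 0.991). Gadd45a was closest to Spry2, Aurkaip1 and Drg1 (0.995, 0.988 and 0.984), and Gadd45b to Ppp6r2, Commd7 and Guca1a (0.996, 0.995 and 0.994). Trp53 was close to Cdc26 and Rora (0.980 and 0.977), and Mdm2 to Btk, Depdc7 and Triap1 (0.950, 0.950 and 0.949). Pmaip1 was closest to Tktl1, Dhx8 and Slc25a25 (0.997, 0.996 and 0.994), Bax to Mtx2, Lonp1 and Aplp2 (0.988, 0.981 and 0.980), and Ccng1 to 2010107E04Rik, Gm15421 and Anapc13 (0.997, 0.996 and 0.994). No chosen gene was among the 3 nearest of another. Such values are high for many genes when 8952 are searched over 7 points, and they describe these groups only.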

How the data were processed

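Per the labels' protocols, cDNA was made from lysed cells or embryos with the SMARTer Ultra Low Input kit, sheared with a Covaris instrument, built into NEBNext Ultra libraries and read from a single end on an Illumina HiSeq. Per the submitters' processing notes, Novoalign (version not given) and Cufflinks 2.0.2 were used with build mm9. The authors deposited FPKM for 23697 rows in 14 libraries. The annotation, filters, strand and handling of multiply mapping reads were not given in the sources used here. Depth is not stated, and the precision behind each FPKM value is unknown beyond the relative depth estimated from the ratios of low values.

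From these, 804 rows of short RNAs were left out and 630 rows with a repeated symbol were summed, leaving 22493 symbols. Of these, 13452 reached 1 FPKM in 2 or more libraries and entered limma 3.58.1 (R 4.3.3) as log2(FPKM + 1), with its intensity trend, 7 residual and 4.72 prior degrees of freedom. The script was tested on simulated data. All 7 groups of 2 entered a single fit, and Benjamini-Hochberg adjustment ran over all tested genes of each of 10 comparisons, at 0.05. Nothing in the labels says that replicates were separate experiments, so p-values measure only the spread between these libraries. That spread was estimated per gene over all 7 groups, not from the compared groups alone. Where the compared groups spread more widely than the others, it is too narrow and p-values can be too small. The group weights, lower for a wider spread, were 0.337 for Kdm4d and 0.263 for the mutant, against 3.08 for IVF 1-cell embryos. Groups of 2 libraries can also separate fully without a difference. The share of all genes that did so is not given here. Starts in the table count from 0, and 1 was added. Tables and figures were made with Python 3.11.15, pandas 2.3.3, numpy 2.4.6 and matplotlib 3.10.9.

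The 9 members and the further lists were chosen with earlier results of these data known. Named besides the members were their closest relatives, Kdm4d, the 3 genes most correlated with each member that averaged 5 FPKM or more in some group, and of each list up to 2 called genes with the largest rise and 2 with the largest fall, with the same minimum and no overlap between the libraries compared, for SCNT against IVF 2-cell embryos and for the stage changes. The text gives a selection of these, and some items are not reported here. The alternatives were a pseudocount of 0.1, no filter, a filter of 5 FPKM, quantile normalization, equal FPKM sums, a fit on the compared groups only, group weights, a replicate block and the omission of each library.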

Additional observations from a re-analysis of the deposited data

Results flagged for a closer look

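The stage change of Gadd45a differed between SCNT and IVF embryos by −2.04 ± 0.24 (SE) on the log2(FPKM + 1) scale (limma interaction, adjusted p = 0.00016), with a rise in each kind of embryo. Both SCNT libraries lay above both IVF libraries at the 1-cell stage and below them at the 2-cell stage.

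The stage change of Pmaip1 differed by −1.24 ± 0.31 (limma interaction, adjusted p = 0.011), again with a rise in each kind of embryo. Pmaip1 had passed the filter only through 2-cell libraries. With a pseudocount of 0.1 the difference was −1.88 and did not pass (adjusted p = 0.068).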

How the results depend on the processing

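For 100 differences of the chosen genes and Mdm4 and Gadd45g, 1230 alternative values were computed. Direction and side of the threshold were kept in 1065, the call was lost in 89 and gained in 44, and the direction turned in 32, where a sign change smaller than 1 SE in a difference that had not passed was counted as kept. With equal sums the turned values in SCNT 2-cell embryos against the 1-cell stage were 0.58 (Mdm2), 0.27 (Mdm4) and 0.08 (Gadd45g), and against IVF 0.28 (Mdm2). Kdm4d against plain SCNT turned to −0.09 (Cdkn1a) and −0.17 (Mdm2), against the mutant to −0.11 (Trp53) and against IVF to −0.28 (Gadd45a), −0.27 (Mdm4) and −0.0 (Ccng1). The mutant against plain SCNT turned to −0.16 (Cdkn1a), −0.18 (Ccng1), −0.20 (Gadd45a), −0.23 (Gadd45b), −0.31 (Mdm4) and −0.32 (Mdm2). With quantile normalization the turned values were 0.15 (Mdm2) and 0.95 (Mdm4) between the SCNT stages, 0.16 (Mdm4) between SCNT and IVF 1-cell embryos, −0.01 (Ccng1) and 0.14 (Mdm2) between SCNT and IVF 2-cell embryos, −0.06 (Mdm2) and −0.94 (Mdm4) between the mutant and plain SCNT, and −0.06 (Ccng1), −0.18 (Gadd45a) and −0.37 (Mdm4) between Kdm4d and IVF embryos. Single libraries turned Trp53 to −0.21 between SCNT and IVF 2-cell embryos (without IVF 2-cell library 2; 0.34 without library 1), Bax to 0.15 between Kdm4d and plain SCNT (without SCNT library 1; −0.40 without library 2), and Gadd45b to −0.53 between the mutant and plain SCNT (without mutant library 2; 0.97 without library 1). Without mutant library 1, Ccng1 turned to −0.11 and Mdm4 to −0.13 against plain SCNT (0.55 and 0.45 without library 2), and Ccng1 to 0.04 between Kdm4d and the mutant (−0.63 without library 2).

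Of the 8 tested genes, the number called in the difference of the stage changes went from 2 to 1 with a pseudocount of 0.1, to 1 with the filter of 5 FPKM (Pmaip1 was not tested there) and to 4 with group weights. Between SCNT and IVF 1-cell embryos it went from 2 to 0 with quantile normalization, 1 with equal sums, and 4 with the compared groups only and 4 with group weights. Between Kdm4d and plain SCNT it went from 5 to 2 with a pseudocount of 0.1, 3 with quantile normalization (Gadd45a and Pmaip1 higher, Trp53 lower), 3 with equal sums (Trp53, Bax and Ccng1, all lower, and none of the 5), 2 with the compared groups only and 2 with group weights. Between the mutant and plain SCNT it went from 0 to 1 with quantile normalization (Trp53) and 2 with equal sums (Trp53 and Bax), all lower. Between Kdm4d and the mutant it went from 3 to 0 with the compared groups only and 0 with group weights, and between Kdm4d and IVF from 1 to 3 with quantile normalization (Bax and Pmaip1 added, both lower) and 3 with equal sums (Bax and Trp53 added, both lower).

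Over all genes, 3924 calls in the difference of the stage changes became 6409 with the compared groups only and 6590 with group weights. The 311 calls between SCNT and IVF 1-cell embryos became 766 with a pseudocount of 0.1, 144 with quantile normalization, 150 with equal sums, 2779 with the compared groups only and 4077 with group weights. With the compared groups only and with group weights, 2378 calls of the mutant against plain SCNT became 1 and 564 (3983 with equal sums), 5898 of Kdm4d against the mutant 0 and 2242, and 2733 of Kdm4d against IVF 140 and 1764. The 5314 calls of Kdm4d against plain SCNT became 2878 with the compared groups only. A fit on the compared groups has fewer libraries to estimate the spread. It also leaves out the spread of the other groups, and the group weights, lower for a wider spread, were far from equal. They were 3.08 (IVF 1-cell), 2.51 (SCNT 1-cell), 1.43 (IVF 2-cell), 1.17 (donor cells), 0.865 (plain SCNT 2-cell), 0.337 (Kdm4d) and 0.263 (mutant). The part of these in the changed counts was not tested.

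With each library left out in turn, the members called and all genes called ranged from 7 to 8 and 7965 to 8148 for the IVF stages, 4 to 6 and 7655 to 8069 for the SCNT stages, 2 to 2 and 2523 to 3023 for their difference, and 6 to 7 and 8837 to 9747 for donor cells against IVF 1-cell embryos. They ranged from 0 to 1 and 45 to 57 for SCNT against IVF at the 1-cell stage and 3 to 3 and 4514 to 4840 at the 2-cell stage. For Kdm4d against plain SCNT they were 2 to 3 and 3859 to 5399, for the mutant against plain SCNT 0 to 1 and 567 to 4187, for Kdm4d against the mutant 1 to 4 and 4271 to 6530, and for Kdm4d against IVF 1 to 2 and 1030 to 2888. A lone library was assumed to vary like the other groups.

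Libraries of the same replicate number share only that number. The correlation of their deviations over 5279 genes ran from −0.296 (Kdm4d and plain SCNT) to 0.351 (Kdm4d and the mutant). With the replicate number as a block, 4 in place of 5 members were called between Kdm4d and plain SCNT, where Mdm2 had an adjusted p of 0.053, and no other call of the 100 differences changed. The block moved no count of calls by over 1.5 times.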
